A study of Mus musculus with 18 samples.

Results

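The 8 genes described here are known to be induced by glucocorticoids and were followed across brains of estrogen receptor knockout and wild-type mice: Sgk1, Ddit4, Fkbp5, Tsc22d3, Zbtb16, Pdk4, Klf9 and Nfkbia. They are 8 of the 18193 genes that the platform annotation names with a probe set of a single gene symbol, and 25 of the 45037 probe sets tested carry their symbols. The genes were chosen by their known response to glucocorticoids together with earlier results of these arrays, in which Sgk1 and Ddit4 were high in both knockout lines. The differences of Sgk1 and Ddit4 from wild type are therefore given as a description and support nothing further. For each gene, the probe set with the highest mean over all 18 arrays leads.

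The arrays are Affymetrix Mouse 430 2.0 arrays, on which a probe set is a group of short probes for a transcript. They hold 3 female and 3 male brains of each of 3 genotypes: ERalphaKO (knockout of estrogen receptor alpha, gene Esr1), ERbetaKO (knockout of estrogen receptor beta, gene Esr2) and wild-type C57BL/6. All mice were on the C57BL/6 background and 8 weeks old. The submitters describe each brain as used whole after flash freezing, though markers of cerebellum and pituitary differed widely between arrays (below). The labels name neither the disrupted exon of a knockout nor whether the arrays of a group come from separate animals, so the p-values measure the spread between these arrays.

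Glucocorticoids are the steroid hormones that the adrenal gland releases in stress and on a daily rhythm. They bind the glucocorticoid receptor (Nr3c1) and the mineralocorticoid receptor (Nr3c2), which sit in the cytoplasm with chaperones until hormone binds, then enter the nucleus and bind short palindromic DNA elements near their target genes. In brain, receptor targets are known for feedback on the receptor, for restraint of growth signalling and inflammation, and for the switch of fuel use in stress. Several of them, Sgk1 and Ddit4 among them, are also induced by other stimuli, such as osmotic stress or low oxygen.

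The labels of the knockouts were set against their own receptor genes before any other result. The Esr2 probe set had 271 ± 98.0 signal units in ERbetaKO-labelled brains and 28.7 ± 11.4 in wild type (SD, n = 6 arrays each; two-sided exact permutation p = 0.00216, the smallest this design can give), which is opposite to a loss of the transcript. Of the 3 Esr1 probe sets, the one brightest in wild type had 129 ± 21.6 in ERalphaKO-labelled brains and 143 ± 35.9 in wild type (exact permutation p = 0.511), and the others were higher in ERalphaKO-labelled brains, at 230 ± 52.3 against 141 ± 50.7 (exact permutation p = 0.0173) and 65.0 ± 20.6 against 38.6 ± 16.5 (exact permutation p = 0.0455). Where these probes lie relative to the disrupted sequence is not known here, so the lines are called ERalphaKO-labelled and ERbetaKO-labelled below, and every direction rests on those labels. Arrays of a group correlated at 0.956 to 0.985 over all probe sets. The arrays also differed in tissue content and RNA: the summed signal of 12 cerebellum markers ran between 10540 and 58610 in ERalphaKO-labelled, between 9676 and 82460 in ERbetaKO-labelled and between 11230 and 90630 in wild-type brains. The medians were 36640, 14350 and 37520 in the same order, lowest in ERbetaKO-labelled brains. Sums of 7 pituitary markers ran from 647.7 to 44340, from 949.3 to 34300 and from 744.9 to 35780. Signal of both tissues thus differed widely between samples described as whole brains. The 3' over 5' signal ratio of Actb, which grows as RNA is degraded or amplified less completely, was 1.15 to 1.37 in ERalphaKO-labelled, 1.34 to 1.84 in ERbetaKO-labelled and 1.17 to 1.23 in wild-type brains, so ERbetaKO-labelled arrays did not overlap wild type in it. Summed signals of 9 neuron markers were 50140 to 71720, 62260 to 79190 and 63330 to 86920 in the same order of groups, so neuron genes were measured on every array.

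Sgk1 encodes serum- and glucocorticoid-regulated kinase, which phosphorylates ion channels, transporters and transcription factors. It was higher in both knockout-labelled lines than in wild type. Its single probe set (1416041_at, NM_011361) gave MAS5 signals of 4346, 4094 and 4383 in ERalphaKO-labelled females and 3971, 4405 and 2626 in ERalphaKO-labelled males. In ERbetaKO-labelled brains the signals were 3336, 4667 and 4932 in females and 2944, 3514 and 3829 in males. Wild-type brains had 1811, 3731 and 2498 in females and 1796, 1965 and 1264 in males. The wild-type arrays lie lowest, except that wild-type female replicate 2 reaches into the range of both lines, so the genotypes overlap. On the log2 scale of signal plus a pseudocount of 63.63, on which all differences below are given and which understates the change of dim genes, the difference from wild type was 0.91 ± 0.17 for ERalphaKO-labelled brains (SE; 95% interval 0.55 to 1.26, or 1.87-fold) and 0.87 ± 0.17 for ERbetaKO-labelled brains (0.51 to 1.22, or 1.82-fold). Both comparisons share the 6 wild-type arrays. In whole brain, fewer cells of a type and less RNA per cell cannot be told apart.

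Of the 6 Sgk1 transcript starts in the RefSeq table (GRCm38.p6), the fifth is the one whose 250 bases upstream hold a full match to the receptor element, searched as AGAACA and TGTTCT separated by any 3 bases, a palindrome that reads the same on both strands. That window is chr10:21993640-21993889 on the plus strand. The match, AGAACAGAATGTTCT, lies at -189 to -175 from the start, and 3 of 32851 starts in the table (0.00913%) hold one. A single arm of the element, AGAACA or TGTTCT, is common: 16.1% of starts hold one, and it also occurs upstream of the first (-195 to -190) and the fourth (-13 to -8) Sgk1 starts. The sequence is shown because Sgk1 is the gene with the largest difference among the 8 and the only one of the 7 genes in the promoter table with the full element. In it, capitals mark the element and, near its 5' end, a further arm.
Sgk1 start 5: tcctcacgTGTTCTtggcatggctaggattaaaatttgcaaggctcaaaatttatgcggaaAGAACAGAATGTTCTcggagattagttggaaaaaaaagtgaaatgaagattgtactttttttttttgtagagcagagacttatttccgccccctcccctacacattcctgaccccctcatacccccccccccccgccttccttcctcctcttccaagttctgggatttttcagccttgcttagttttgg
A match is a description of these letters, and no binding was measured in these data.

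Ddit4 encodes an inhibitor of mTORC1, the kinase complex that drives protein synthesis and growth, and acts through the Tsc1 and Tsc2 complex. Its single probe set (1428306_at, AK017926) gave signals of 2102, 1989 and 2258 in ERalphaKO-labelled females and 2477, 2410 and 1802 in ERalphaKO-labelled males. ERbetaKO-labelled brains had 2698, 2174 and 2326 in females and 1874, 1998 and 1849 in males. Wild-type brains had 1269, 1683 and 1402 in females and 1139, 1575 and 1236 in males. All 12 knockout-labelled arrays lie above all 6 wild-type arrays, with 1802 the lowest knockout-labelled and 1683 the highest wild-type signal. The log2 difference from wild type was 0.63 ± 0.10 (95% interval 0.43 to 0.84, or 1.55-fold) in ERalphaKO-labelled and 0.61 ± 0.10 (0.41 to 0.82, or 1.53-fold) in ERbetaKO-labelled brains. Over the 13070 genes tested, the arrays of ERalphaKO-labelled and wild-type brains do not overlap in 4.67% and those of ERbetaKO-labelled and wild-type brains in 4.09%. Ddit4 is the 1 of the 8 genes without overlap in each, and nothing is read from that count, since this contrast chose it.

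The Ddit4 promoter, chr10:59951771-59952020 on the minus strand in the RefSeq table of GRCm38.p6, is shown for comparison with Sgk1. Its 250 bases have 70.0% G and C, against 44.8% at the fifth and 70.4% at the sixth Sgk1 start. They hold none of the motifs searched on both strands: the receptor element or a single arm of it, the NF-kappaB element GGAAA followed directly by TTCCC (0.0852% of starts), the cyclic AMP element TGACGTCA (1.55%), the AP-1 element TGACTCA or TGAGTCA (4.46%) and, on the transcript strand only, TATAAA (7.59%).
Ddit4: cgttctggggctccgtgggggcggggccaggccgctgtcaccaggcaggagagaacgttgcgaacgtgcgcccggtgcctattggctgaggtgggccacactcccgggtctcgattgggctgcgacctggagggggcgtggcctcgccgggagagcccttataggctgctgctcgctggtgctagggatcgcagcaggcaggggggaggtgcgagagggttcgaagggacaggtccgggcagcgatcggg
No match says only that these letters are not in this window.

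**Figure D1:**
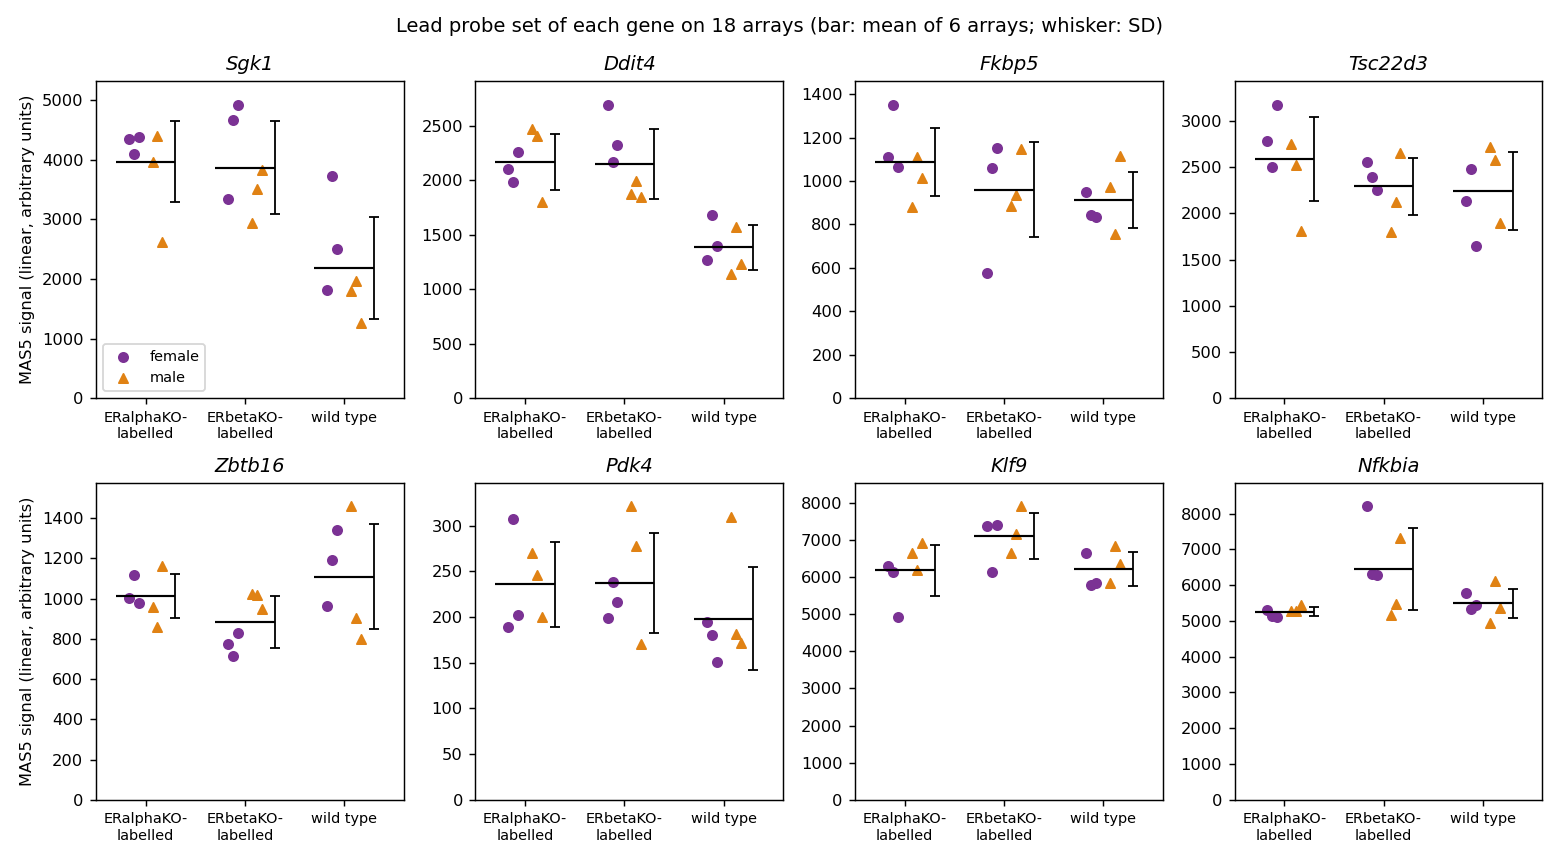
MAS5 signal (linear, from 0) of the lead probe set of each of the 8 genes on each array, by genotype, with circles for females and triangles for males, bars for the mean of 6 arrays and whiskers for the SD. Ddit4 signals of knockout-labelled brains (1802 and above) lie above every wild-type array (1683 and below), and Sgk1 has 1 wild-type array, at 3731, within the knockout-labelled range.

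Of the 8 genes, 2 (Sgk1 and Ddit4) passed an adjusted p of 0.05 in ERalphaKO-labelled against wild-type brains, both higher, beside 6.71% of all genes tested (limma with Benjamini-Hochberg adjustment over 13070 genes, both directions). The same 2 passed in ERbetaKO-labelled against wild-type brains, both higher, beside 7.51% of all genes. Nothing is read from these counts, because Sgk1 and Ddit4 were chosen by this contrast. Over the 6 genes other than Sgk1 and Ddit4, the median log2 difference was 0.09 in the ERalphaKO-labelled line and 0.12 in the ERbetaKO-labelled line, where the median of all genes tested was -0.03 in the ERalphaKO-labelled line and 0.01 in the ERbetaKO-labelled line.

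Other measures moved with the same groups. Immediate early genes, which neurons induce within minutes of activity, had a summed signal of 21920 to 45110 in ERalphaKO-labelled, 25550 to 40910 in ERbetaKO-labelled and 15790 to 25640 in wild-type brains over all 18 listed. Fos, the best known of them, had 2535 ± 598 and 2601 ± 426 signal units in ERalphaKO-labelled and ERbetaKO-labelled brains, against 759 ± 156 in wild type (SD, n = 6 each). Within groups, Sgk1 and Ddit4 did not follow Fos from array to array (r = -0.30 and -0.31 over 18 arrays, as a description). The part of the immediate early genes in the Sgk1 and Ddit4 differences was not tested. A fit that held the Actb ratio as a covariate gave ERalphaKO-labelled differences of 0.80 for Sgk1 and 0.65 for Ddit4, and ERbetaKO-labelled ones of 0.53 for Sgk1 (adjusted p = 0.384) and 0.66 for Ddit4 (adjusted p = 0.0880), which had both passed the threshold without it. With the cerebellum score as a covariate, the ERalphaKO-labelled differences were 0.91 and 0.63 and the ERbetaKO-labelled ones 0.91 and 0.68 for Sgk1 and Ddit4. On the 11 arrays with more than 500 signal units of Pcp2, a Purkinje cell gene, Sgk1 differed by 0.65 in ERbetaKO-labelled brains (adjusted p = 0.12).

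Fkbp5, Tsc22d3 and Zbtb16 are among the genes most used as a readout of the glucocorticoid receptor, and none of them passed the threshold in either line. Fkbp5 encodes a cochaperone that lowers the receptor's affinity for hormone, a short feedback loop. Its lead probe set ranged from 877.8 to 1352 (median 1087) in ERalphaKO-labelled, from 577.1 to 1154 (median 998.2) in ERbetaKO-labelled and from 757.7 to 1117 (median 895.7) in wild-type brains. The ranges overlap throughout, with the lowest array an ERbetaKO-labelled female. The log2 difference from wild type was 0.24 ± 0.14 (95% interval -0.06 to 0.53; limma adjusted p = 0.320) in ERalphaKO-labelled and 0.05 ± 0.14 (-0.25 to 0.34; adjusted p = 0.862) in ERbetaKO-labelled brains. Another Fkbp5 probe set, 1448231_at, gave 568 ± 143 and 528 ± 67.5 signal units in the ERalphaKO-labelled and ERbetaKO-labelled lines, against 485 ± 74.0 in wild type (SD, n = 6 each), and the third, 1447736_at, stayed below 26 signal units on every array.

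Tsc22d3 encodes GILZ, a leucine zipper protein that restrains inflammatory transcription factors. Its lead probe set ranged from 1806 to 3179 (median 2640) in ERalphaKO-labelled, from 1799 to 2649 (median 2320) in ERbetaKO-labelled and from 1648 to 2718 (median 2309) in wild-type brains, and the ranges overlap, with the highest array an ERalphaKO-labelled one. The log2 difference from wild type was 0.20 ± 0.13 (95% interval -0.07 to 0.48; adjusted p = 0.365) in ERalphaKO-labelled and 0.04 ± 0.13 (-0.23 to 0.32; adjusted p = 0.873) in ERbetaKO-labelled brains. Another probe set, 1425281_a_at, which followed the lead from array to array within groups (r = 0.935, 18 arrays), differed by 0.35 ± 0.12 in ERalphaKO-labelled brains (adjusted p = 0.0988 over all probe sets). A single arm of the receptor element lies at -185 to -180 from the third of its 3 listed starts.

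Zbtb16 encodes a zinc finger repressor that glucocorticoids induce strongly in several tissues. Its lead probe set ranged from 860.0 to 1161 (median 992.8) in ERalphaKO-labelled, from 716.7 to 1025 (median 889.3) in ERbetaKO-labelled and from 801.5 to 1460 (median 1078) in wild-type brains. The 3 ERbetaKO-labelled females, at 775.8, 716.7 and 830.2, are among the lowest arrays, and wild-type arrays reach highest. The log2 difference from wild type was -0.10 ± 0.12 (95% interval -0.35 to 0.15; adjusted p = 0.658) in ERalphaKO-labelled and -0.29 ± 0.12 (-0.54 to -0.03; adjusted p = 0.145) in ERbetaKO-labelled brains. Its other probe sets did not share 1 direction: 1419874_x_at had 553 ± 126 and 421 ± 144 signal units in the ERalphaKO-labelled and ERbetaKO-labelled lines, against 525 ± 191 in wild type, and 1427638_at had 310 ± 55.1 and 382 ± 82.4, against 351 ± 66.3.

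Pdk4 encodes a mitochondrial kinase that switches off pyruvate dehydrogenase and so spares glucose. Its single probe set ranged from 189.0 to 306.8 (median 223.5) in ERalphaKO-labelled, from 170.9 to 321.1 (median 227.2) in ERbetaKO-labelled and from 150.8 to 309.5 (median 181.0) in wild-type brains. The ranges overlap, with wild-type male replicate 1 at 309.5 and the other wild-type arrays between 150.8 and 194.3. The log2 differences from wild type were 0.20 ± 0.15 (95% interval -0.11 to 0.51; adjusted p = 0.431) and 0.21 ± 0.15 (-0.11 to 0.52; adjusted p = 0.408) in the ERalphaKO-labelled and ERbetaKO-labelled lines.

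Klf9 encodes a zinc finger factor that corticosteroids and thyroid hormone induce in neurons. The lead of its 7 probe sets ranged from 4922 to 6918 (median 6246) in ERalphaKO-labelled, from 6144 to 7911 (median 7259) in ERbetaKO-labelled and from 5795 to 6841 (median 6102) in wild-type brains. ERbetaKO-labelled arrays reach highest, and all ranges overlap. The log2 difference from wild type was -0.01 ± 0.08 (95% interval -0.18 to 0.15; adjusted p = 0.944) in ERalphaKO-labelled and 0.19 ± 0.08 (0.02 to 0.36; adjusted p = 0.152) in ERbetaKO-labelled brains. The Klf9 probe sets split in sign: 4 of 7 were above 0 and 3 below in each line, and none passed over all probe sets. The dimmest, 1452723_at, whose mean of 119.1 lies at percentile 37.8 of all probe sets, below the level filter of the gene fit, ranged from 65.47 to 117.9 in ERalphaKO-labelled, from 128.2 to 176.3 in ERbetaKO-labelled and from 71.45 to 114.1 in wild-type brains. Its ERbetaKO-labelled arrays lie above all the others, with a difference from wild type of 0.39 ± 0.11 (adjusted p = 0.0603 over all probe sets).

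Nfkbia encodes the inhibitor that holds NF-kappaB in the cytoplasm, and it is induced both by glucocorticoids and by NF-kappaB itself. Its 5 probe sets did not read alike. The lead by mean signal, 1420088_at, for which the platform annotation gives no accession, ranged from 5116 to 5434 (median 5285) in ERalphaKO-labelled, from 5162 to 8208 (median 6297) in ERbetaKO-labelled and from 4932 to 6113 (median 5393) in wild-type brains. It differed from wild type by -0.06 ± 0.09 (95% interval -0.25 to 0.13; adjusted p = 0.748) in ERalphaKO-labelled and by 0.22 ± 0.09 (0.03 to 0.41; adjusted p = 0.139) in ERbetaKO-labelled brains. The probe set annotated to the RefSeq transcript, 1448306_at (NM_010907), ranged from 633.1 to 995.6 (median 913.3) in ERalphaKO-labelled, from 595.9 to 891.8 (median 698.3) in ERbetaKO-labelled and from 473.8 to 657.2 (median 567.2) in wild-type brains. There, 1 ERalphaKO-labelled array, male replicate 3, falls within the wild-type range and the other ERalphaKO-labelled arrays lie above it. The log2 difference from wild type was 0.58 ± 0.09 in ERalphaKO-labelled brains (adjusted p = 0.00233 over all 45037 probe sets) and 0.30 ± 0.09 in ERbetaKO-labelled brains (adjusted p = 0.0800).

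A further Nfkbia probe set, 1438157_s_at, had 1435 ± 161 and 1187 ± 158 signal units in ERalphaKO-labelled and ERbetaKO-labelled brains, against 978.5 ± 91.4 in wild type (SD, n = 6 each). All 6 ERalphaKO-labelled arrays (1265 and above) lie above all wild-type arrays (1047 and below), and it rose by 0.52 ± 0.08 in ERalphaKO-labelled brains (adjusted p = 0.00216). Under 24 alternative settings both this probe set (0.47 to 0.57) and the one annotated to the RefSeq transcript (0.52 to 0.67) passed throughout in ERalphaKO-labelled brains. In ERbetaKO-labelled brains its difference was 0.26 ± 0.08 (adjusted p = 0.0913). The remaining probe sets were 1449731_s_at, with 1094 ± 164 and 842 ± 148 against 857 ± 186, and 1420089_at, with 230 ± 25.9 and 333 ± 35.2 against 276 ± 43.9. From array to array within groups, the lead correlated with the other 4 at -0.60 to 0.16 (18 arrays, as a description). Over all 25 probe sets of the 8 genes, 4 passed in ERalphaKO-labelled against wild-type brains, beside 4.72% of all probe sets, and they were those of Sgk1 and Ddit4 and the 2 of Nfkbia just described. In ERbetaKO-labelled against wild-type brains 2 passed, those of Sgk1 and Ddit4, beside 3.59% of all probe sets. These counts are not read further, because Sgk1 and Ddit4 were chosen by the contrasts with wild type and the 2 Nfkbia probe sets read the same gene.

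The Nfkbia promoter, chr12:55492648-55492897 on the minus strand (RefSeq, GRCm38.p6), is shown because its window holds the element of NF-kappaB, the factor that Nfkbia inhibits and that induces it. Capitals mark the NF-kappaB element, at -29 to -20 from the start, and the window holds no arm of the receptor element.
Nfkbia: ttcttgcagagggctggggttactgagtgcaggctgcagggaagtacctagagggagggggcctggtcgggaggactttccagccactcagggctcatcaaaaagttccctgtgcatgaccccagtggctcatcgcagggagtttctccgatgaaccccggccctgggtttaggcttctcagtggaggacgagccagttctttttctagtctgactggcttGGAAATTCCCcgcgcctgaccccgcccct
The 7 members in the promoter table have 14 starts, of which 5 hold any of the motifs for the receptor or for NF-kappaB: 3 of Sgk1, 1 of Tsc22d3 and 1 of Nfkbia.

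**Figure D2:**
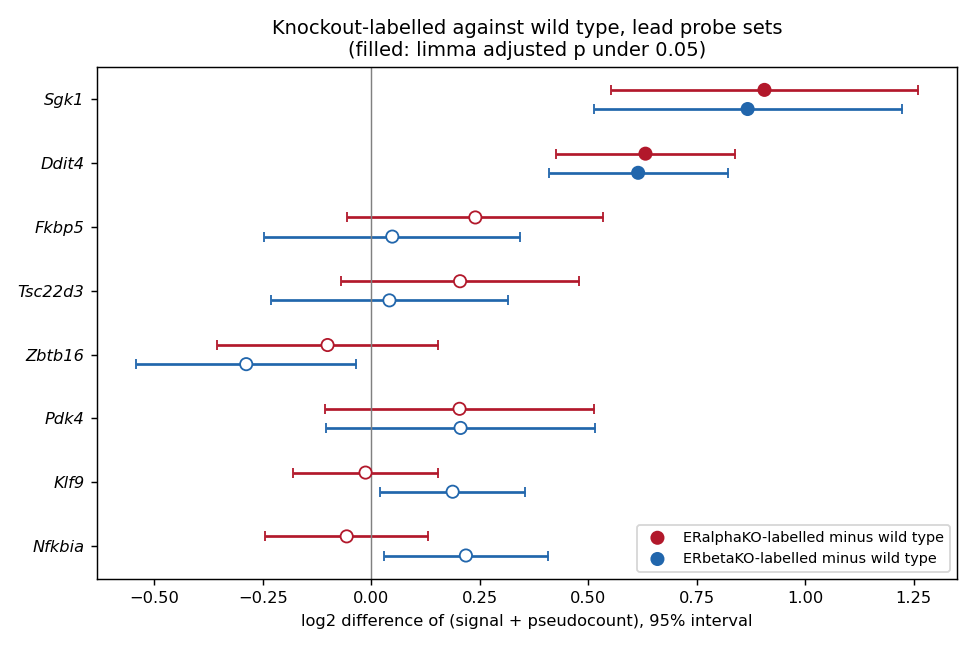
Log2 difference (signal plus pseudocount) of each gene's lead probe set in ERalphaKO-labelled (red) and ERbetaKO-labelled (blue) brains minus wild type, with 95% intervals and filled points for an adjusted p under 0.05. The 2 filled genes, Sgk1 and Ddit4, are higher in both lines and were chosen by this contrast, and the points of the other 6 lie nearer to 0 and are open, with intervals that in part overlap those of the filled genes.

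**Figure D3:**
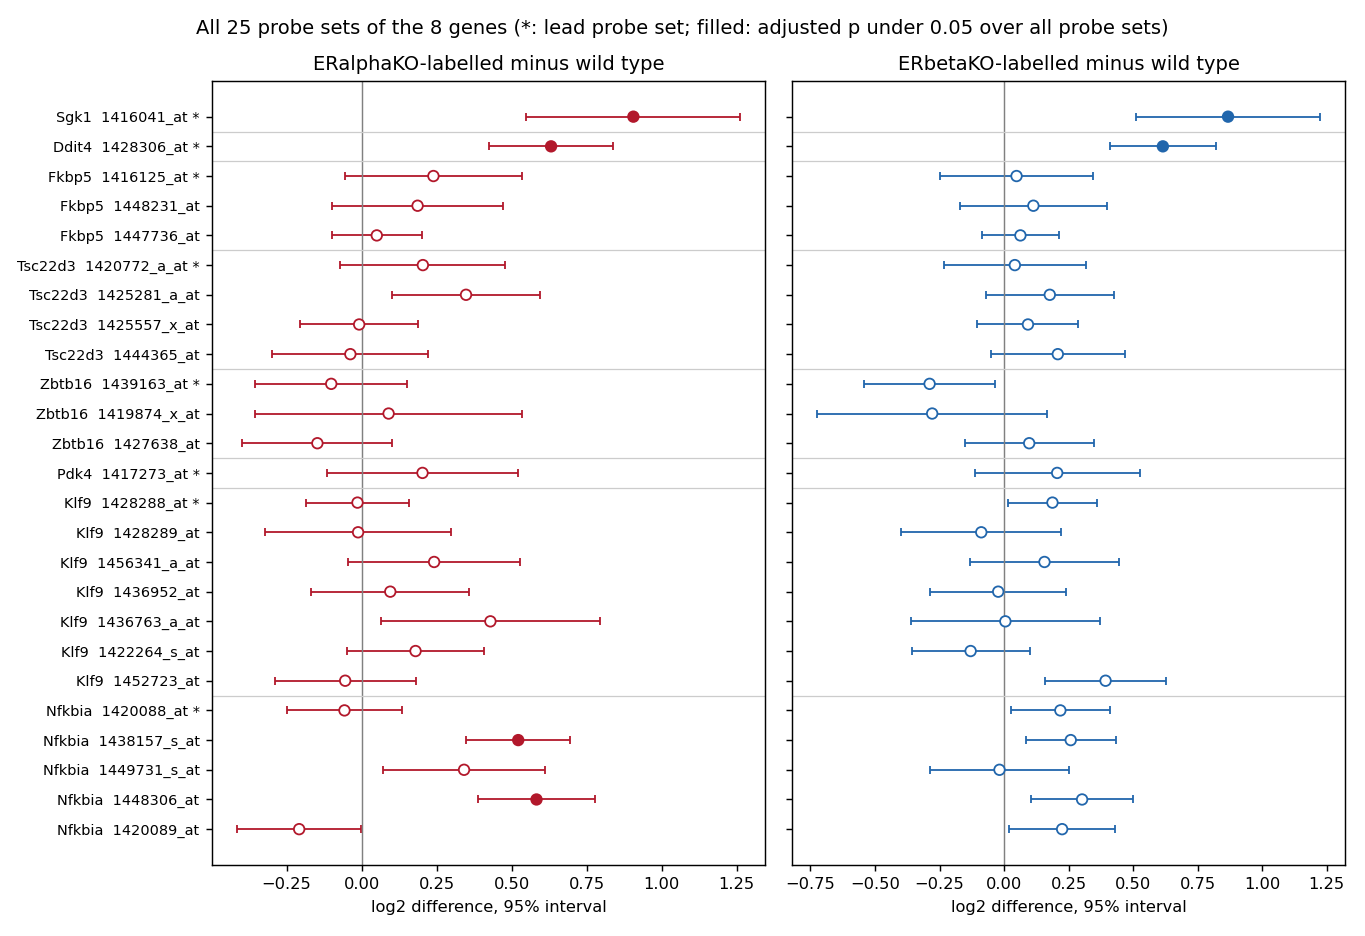
Log2 difference from wild type of all 25 probe sets of the 8 genes, ERalphaKO-labelled on the left and ERbetaKO-labelled on the right, with 95% intervals, an asterisk for the lead and filled points for an adjusted p under 0.05 over all probe sets. In the left panel 2 Nfkbia probe sets are filled at 0.52 and 0.58, while the Nfkbia lead lies at -0.06.

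The knockout-labelled lines were also set against each other. This contrast holds no wild-type mean, though wild-type arrays enter its estimate of the spread. Sgk1 and Ddit4 were chosen as high in both lines, so nothing is read from how little they differ between the lines. Sgk1 differed by 0.04 ± 0.17 between ERalphaKO-labelled and ERbetaKO-labelled brains (95% interval -0.32 to 0.39; adjusted p = 0.890) and Ddit4 by 0.02 ± 0.10 (-0.19 to 0.22; adjusted p = 0.919). Of the 8 genes 1 passed, the Nfkbia lead, which fell by 0.27 ± 0.09 in ERalphaKO-labelled relative to ERbetaKO-labelled brains (adjusted p = 0.0472), beside 15.4% of all genes tested. That call held under 12 of 32 alternative settings. Its other probe sets did not agree in sign: 1420089_at was lower in ERalphaKO-labelled brains (-0.43 ± 0.10; adjusted p = 0.0147 over all probe sets), whereas 1438157_s_at and 1448306_at were at 0.26 ± 0.08 (adjusted p = 0.0536) and 0.28 ± 0.09 (adjusted p = 0.0658). With 1452723_at of Klf9, at -0.45 ± 0.11 (adjusted p = 0.0222), 2 of 25 probe sets passed, beside 9.43% of all probe sets, and under alternative settings 1420089_at passed in 22 of 24 and 1452723_at in 20 of 24. None of the 8 lead probe sets separated the arrays of the 2 lines fully, beside 5.85% of all genes. The other members differed by 0.19 ± 0.14 for Fkbp5, 0.16 ± 0.13 for Tsc22d3, 0.19 ± 0.12 for Zbtb16, 0.00 ± 0.15 for Pdk4 and -0.20 ± 0.08 for Klf9, with adjusted p between 0.0925 and 0.994.

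Females and males were compared over all 3 genotypes. Sgk1 was 0.39 ± 0.14 higher in females than in males before adjustment (unadjusted p = 0.0106) and did not pass over all genes (adjusted p = 0.974). None of the 8 genes passed, beside 0.0306% of all genes tested, and Sgk1 was the 1 with an unadjusted p under 0.05, of 602 such genes. Group means of Sgk1 were 4274 ± 158 in ERalphaKO-labelled females and 3668 ± 928 in males, 4312 ± 855 and 3429 ± 448 in ERbetaKO-labelled females and males, and 2680 ± 973 and 1675 ± 366 in wild-type females and males (SD, n = 3 each). Females were thus higher on average in each genotype, and neighbours in this order of the 6 groups overlap. The Sgk1 difference from wild type was 0.72 ± 0.24 in ERalphaKO-labelled females and 1.09 ± 0.24 in males, and the difference between these was -0.37 ± 0.34 (95% interval -1.08 to 0.34; adjusted p = 0.984). In ERbetaKO-labelled brains it was 0.71 ± 0.24 in females and 1.02 ± 0.24 in males, with a difference of -0.31 ± 0.34 (-1.02 to 0.40; adjusted p = 1.00). For Ddit4 the female minus male difference was -0.20 ± 0.20 (-0.61 to 0.21; adjusted p = 0.991) in the ERalphaKO-labelled and 0.18 ± 0.20 (-0.23 to 0.59; adjusted p = 1.00) in the ERbetaKO-labelled line. The largest such interaction in size among the members was that of Zbtb16 in the ERbetaKO-labelled line, -0.51 ± 0.24 (unadjusted p = 0.0494; adjusted p = 1.00), with -0.54 ± 0.17 in females and -0.03 ± 0.17 in males. In neither line did any of all genes tested pass for this interaction in limma (0.0% of 13070), with 675 and 444 genes at an unadjusted p under 0.05 in the ERalphaKO-labelled and ERbetaKO-labelled lines.

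In the order of the 6 group means, 3 of the 8 genes had at least 1 pair of neighbouring groups whose arrays did not overlap, beside 18.7% of all genes tested. For Ddit4, whose contrast with wild type chose it, these were ERbetaKO-labelled males, at 1907 ± 79.7, and wild-type females, at 1451 ± 212 (SD, n = 3 each), and the other neighbours overlapped. Zbtb16 had 1 separate step, between ERalphaKO-labelled males (992.5 ± 154) and ERbetaKO-labelled females (774.2 ± 56.8), the lowest group. Pdk4 had 1, between ERbetaKO-labelled females (217.6 ± 19.8) and wild-type females (175.3 ± 22.3), the lowest group. For Fkbp5, Tsc22d3, Klf9 and Nfkbia all neighbouring groups overlapped.

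Once group means were removed, the 8 genes did not vary as a single set. Of their 28 pairs, 12 had a positive Pearson r over the 18 arrays and 4 exceeded 0.5, and the median was -0.05. The share above 0.5 among pairs of all genes tested is not given here, so nothing is read from the count of 4. These r values describe arrays that differ in tissue content and RNA quality, also within groups. Sgk1, Ddit4 and Tsc22d3 formed 3 of the 4 pairs, at 0.598 for Sgk1 and Tsc22d3, 0.542 for Sgk1 and Ddit4 and 0.517 for Ddit4 and Tsc22d3. Klf9 and Nfkbia were the fourth, at 0.611. The lowest were Pdk4 with Nfkbia at -0.654 and Ddit4 with Fkbp5 at -0.572. Tissue content moved along with part of this: Tsc22d3 correlated with the cerebellum score at 0.783, Ddit4 at 0.715, Sgk1 at 0.284 and Fkbp5 at -0.614. Their part in the pairs was not tested.

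**Figure D4:**
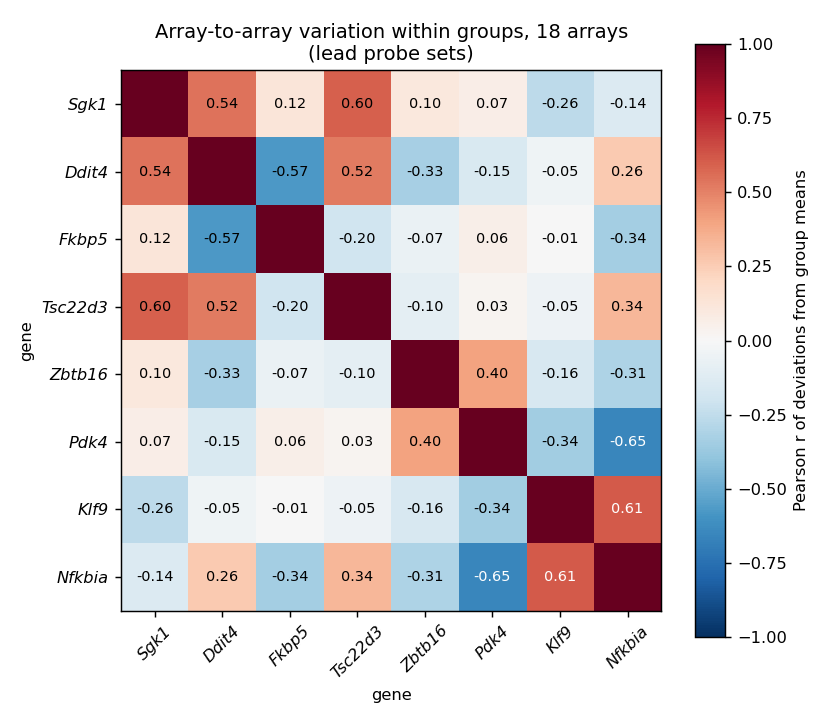
Pearson r between the lead probe sets of the 8 genes over 18 arrays, after each array's group mean was subtracted on the log2 scale. Red marks positive and blue negative r, with 0.60 for Sgk1 and Tsc22d3 and -0.57 for Ddit4 and Fkbp5.

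Among the 13070 genes tested, those most like each member in within-group deviations were found by the same r over 18 arrays. For Sgk1 they were Herpud1 (0.910), Ptpn11 (0.908) and Dlat (0.906), and for Ddit4 Snx30 (0.928), Setdb1 (0.912) and Fam13a (0.909). Tsc22d3 was most like Slc7a10 (0.946), a transporter of astrocytes and 1 of the 11 astrocyte markers used here, Gatm (0.944) and Vamp1 (0.929). The 11 astrocyte markers summed to 37900 to 47010 in ERalphaKO-labelled, 35700 to 51950 in ERbetaKO-labelled and 46440 to 53900 in wild-type brains. Fkbp5 was most like Usp11 (0.919), Smap2 (0.905) and Lhfpl4 (0.904), and Zbtb16 most like Ccng1 (0.898), Egfl7 (0.893) and Ephb3 (0.828). For Pdk4 they were Itga10 (0.893), Slc16a14 (0.876) and Ralgapa2 (0.854), for Klf9 Eif5 (0.913), Klhl26 (0.912) and Pitpna (0.909), and for the Nfkbia lead Tfg (0.952), Bsg (0.932) and Oaz1 (0.925). No member was among the 3 genes most like another member. With 3 genes kept of 13070 tested, nothing is read from that absence.

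The receptors themselves, named after their values were seen, differed little. Nr3c1 had 1841 ± 86.0 and 1797 ± 140 signal units in ERalphaKO-labelled and ERbetaKO-labelled brains, against 1698 ± 99.4 in wild type, and Nr3c2 had 629 ± 97.1 and 626 ± 137, against 663 ± 119 (SD, n = 6 each). Counts of list genes are to be read beside the 6.71% and 7.51% of all genes that passed in the ERalphaKO-labelled and ERbetaKO-labelled lines. Of the 8 receptor and cochaperone genes tested, 1 (12.5%) rose in each line, which is near that share. It was Dnajb1, a heat shock cochaperone, by 0.55 ± 0.10 (adjusted p = 0.00576) in ERalphaKO-labelled and 0.51 ± 0.10 (adjusted p = 0.00796) in ERbetaKO-labelled brains. With the Actb ratio as a covariate, 0 of these 8 passed in the ERbetaKO-labelled line, where 122 of the 13070 genes tested passed. Of the 8 tested genes of corticosteroid metabolism and stress peptides, none passed in either line. The smallest p there was that of Crhbp, which binds the stress peptide CRH, in ERalphaKO-labelled brains (0.20 ± 0.17; adjusted p = 0.520) and of Crhr2, a CRH receptor, in ERbetaKO-labelled brains (0.40 ± 0.15; adjusted p = 0.111).

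A list of 28 other genes known to be induced by glucocorticoids, 25 of them tested, moved in both directions. In ERalphaKO-labelled brains 6 rose and 3 fell (36.0%), with a median of 0.27 against -0.03 for all genes tested, and in ERbetaKO-labelled brains 2 rose and 2 fell (16.0%), with a median of 0.04 against 0.01. Dusp1, a phosphatase that switches off MAP kinases and is induced by neuronal activity as well, had 2051 ± 362 and 1942 ± 241 signal units in the ERalphaKO-labelled and ERbetaKO-labelled lines, against 881.5 ± 161 in wild type (SD, n = 6 each). It rose by 1.16 ± 0.10 (adjusted p = 1.52e-05) and 1.10 ± 0.10 (adjusted p = 3.29e-05). Tiparp, an ADP-ribosyltransferase, rose by 0.64 ± 0.08 and 0.52 ± 0.08. The transcription factors Cebpd and Cebpb rose by 0.93 ± 0.16 and 0.52 ± 0.10 in ERalphaKO-labelled brains, and in ERbetaKO-labelled brains they were at 0.48 and 0.10 without passing. Among those that fell were Sdc4, a cell surface proteoglycan, at -0.67 ± 0.16 in ERalphaKO-labelled brains, and in ERbetaKO-labelled brains Mt1, a metallothionein, at -0.42 ± 0.09, and Rhob, a small GTPase, at -0.36 ± 0.09. In ERalphaKO-labelled brains the counts became 6 higher and 1 lower under quantile normalization or median scaling. They were 4 and 1 in the fit holding the Actb ratio, where 428 of all 13070 genes passed. On the 11 arrays high in Pcp2 they were 2 and 0, where 79 of all genes passed. In ERbetaKO-labelled brains median scaling put the median at -0.09, where that of all genes was -0.12. The fit holding the Actb ratio gave 2 higher and 0 lower there, beside 122 of all 13070 genes. Gjb6 is on this list and on that of astrocyte markers.

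**Figure D5:**
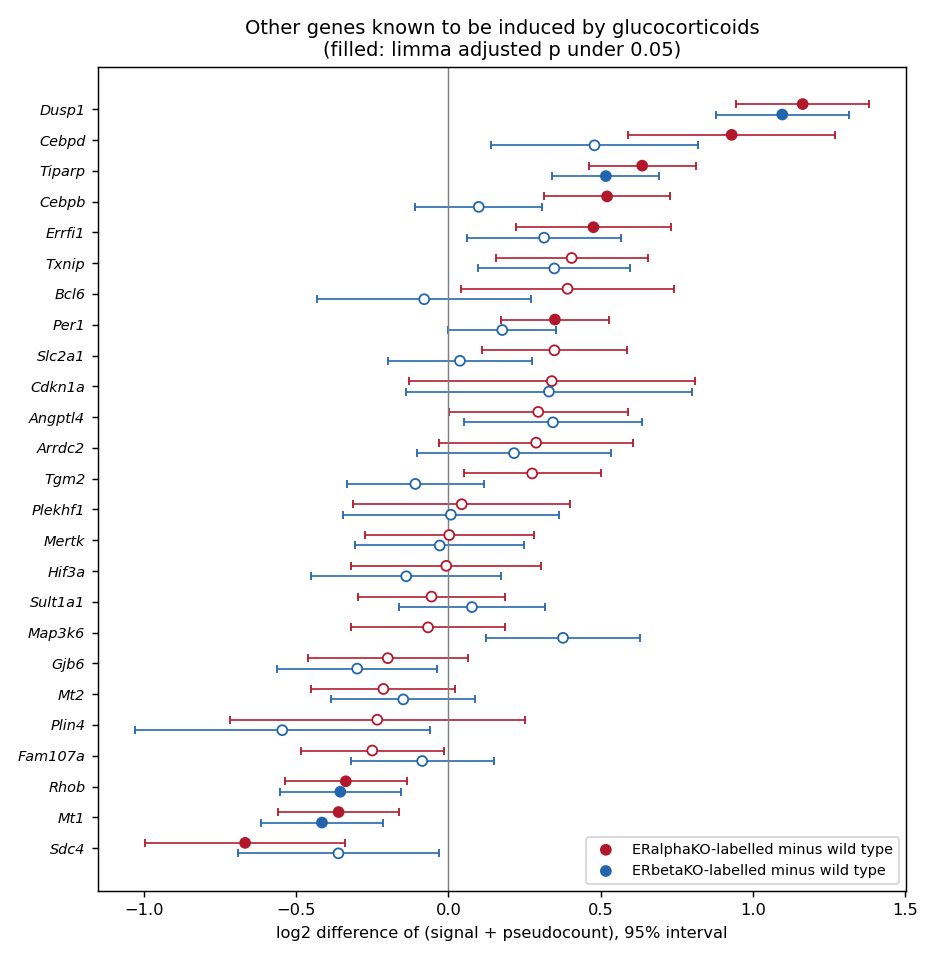
Log2 difference from wild type of the 25 tested genes of the list of other glucocorticoid-induced genes, in ERalphaKO-labelled (red) and ERbetaKO-labelled (blue) brains, with 95% intervals and filled points for an adjusted p under 0.05. Dusp1 lies furthest right at 1.16 and 1.10, and filled points stand on both sides of 0.

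Around Sgk1, none of the 12 genes for Sgk kinases and Sgk1 substrates rose, and 2 (16.7%) fell in the ERalphaKO-labelled line and 1 (8.33%) in the ERbetaKO-labelled line, counts of 1 to 2 genes that are not read as a change of the list. Foxo4, a forkhead transcription factor that Sgk and Akt kinases keep out of the nucleus, fell in both lines, with differences of -0.73 ± 0.19 (adjusted p = 0.0345) in ERalphaKO-labelled and -1.49 ± 0.19 (adjusted p = 0.000717) in ERbetaKO-labelled brains, with 158 ± 58.4 and 66.0 ± 30.6 signal units against 296 ± 52.7 in wild type (SD, n = 6 each). The Foxo4 signal of the ERbetaKO-labelled line lies near the pseudocount of 63.63, and no detection calls were used. Gsk3b, a kinase that Sgk1 inhibits, fell by 0.24 ± 0.07 in ERalphaKO-labelled brains (adjusted p = 0.0430).

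Around Ddit4, 1 of the 14 tested genes of the mTORC1 pathway rose and 2 fell in each line (21.4%). In ERalphaKO-labelled brains Tsc1, a subunit of the complex that Ddit4 acts through, rose by 0.30 ± 0.07, and Castor1, an arginine sensor, and Ddit4l, the paralog of Ddit4, fell, with differences of -0.30 ± 0.08 and -0.54 ± 0.15. In ERbetaKO-labelled brains, without passing, Tsc1 was at 0.12, Castor1 at -0.04 and Ddit4l at 0.41. In ERbetaKO-labelled brains Sesn3, an inhibitor of mTORC1, rose by 0.33 ± 0.08, and Tsc2, the partner of Tsc1, and Eif4ebp2, a translation repressor, fell, with differences of -0.28 ± 0.08 and -0.37 ± 0.11. In ERalphaKO-labelled brains, without passing, these were at 0.14, -0.11 and -0.17. The adjusted p of these 6 lay between 0.0158 and 0.0463. In the fit holding the Actb ratio, 1 of the 14 rose and 0 fell in ERalphaKO-labelled brains. None of the 14 passed in ERbetaKO-labelled brains in that fit, so the 3 calls there did not hold. Of all 13070 genes, 428 and 122 passed in it in the ERalphaKO-labelled and ERbetaKO-labelled lines.

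Among the 13 relatives of Tsc22d3, Pdk4 and Fkbp5, Fkbp3 rose (0.26 ± 0.07) and Fkbp1b fell (-0.36 ± 0.08) in ERalphaKO-labelled brains, and Fkbp8 fell (-0.43 ± 0.10) in ERbetaKO-labelled brains. All 3 encode FK506-binding proteins. With the Actb ratio as a covariate, 0 of the 13 rose and 1 fell in ERalphaKO-labelled brains, and 0 passed in ERbetaKO-labelled brains. Over all 13070 genes, 428 and 122 passed with that covariate in the ERalphaKO-labelled and ERbetaKO-labelled lines. Of the 12 relatives of Klf9, 4 rose and 2 fell (50.0%) in ERalphaKO-labelled brains, and 1 rose and 1 fell (16.7%) in ERbetaKO-labelled brains. On the 11 arrays high in Pcp2 these became 1 and 0, and 2 and 0, beside 79 and 242 of all 13070 genes. With the Actb ratio as a covariate they were 3 and 1, and 0 and 0. Klf10, which is induced by TGF-beta, rose by 0.65 ± 0.14 and 0.86 ± 0.14 in the ERalphaKO-labelled and ERbetaKO-labelled lines, and Klf13 fell, at -0.41 ± 0.10 and -0.52 ± 0.10. Klf2 (0.61 ± 0.09), Klf4 (0.60 ± 0.11) and Klf12 (0.34 ± 0.08) rose in ERalphaKO-labelled brains. Of the 8 tested NF-kappaB pathway genes, none passed in ERalphaKO-labelled brains, where Nfkbiz, an atypical inhibitor protein, had the smallest p (0.22 ± 0.09; adjusted p = 0.154). In ERbetaKO-labelled brains Tnfaip3, a feedback inhibitor of the pathway, rose by 0.45 ± 0.10 (adjusted p = 0.0170) and Rela, an NF-kappaB subunit, fell by 0.23 ± 0.07 (adjusted p = 0.0452). Of these 8 genes, 0 passed there with the Actb ratio as a covariate.

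Of the 18 immediate early genes, 13 rose in each line (72.2%) and none fell. Their median difference was 0.80 in the ERalphaKO-labelled line and 0.67 in the other. Holding the Actb ratio as a covariate, 13 rose in the ERalphaKO-labelled line and 3 in the ERbetaKO-labelled line, where the median was 0.88. On the 11 arrays high in Pcp2 the counts were 3 and 6. Over all 13070 genes tested, 428 and 122 passed with the Actb ratio and 79 and 242 on those arrays. In ERalphaKO-labelled brains Fos rose by 1.65 ± 0.12, Nr4a3 by 1.02 ± 0.16, Egr2 by 1.00 ± 0.16, Gadd45b by 0.79 ± 0.13 and Arc by 1.67 ± 0.31. In ERbetaKO-labelled brains Fos rose by 1.71 ± 0.12, Egr2 by 1.73 ± 0.16, Arc by 2.14 ± 0.31, Egr4 by 1.00 ± 0.16 and Junb by 1.04 ± 0.17. Fos, the Egr and Nr4a families and Junb are transcription factors, Arc acts at synapses and Gadd45b in DNA demethylation.

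The same lists were set between the ERalphaKO-labelled and ERbetaKO-labelled lines, where 15.4% of all genes passed. Of the mTORC1 pathway 3 of 14 passed (21.4%): Sesn2, a stress-induced inhibitor of mTORC1, was higher in ERalphaKO-labelled brains by 0.66 ± 0.13, and Ddit4l (-0.95 ± 0.15) and Castor1 (-0.26 ± 0.08) were lower. Ddit4l had 522.7 ± 90.8 signal units in the ERalphaKO-labelled line and 1076 ± 206 in the ERbetaKO-labelled line (SD, n = 6 each; limma adjusted p = 0.00246). Of the relatives of Klf9, 4 of 12 passed (33.3%), with Klf4 (0.55 ± 0.11), Klf2 (0.39 ± 0.09) and Klf7 (0.33 ± 0.09) higher and Klf3 (-0.66 ± 0.15) lower in ERalphaKO-labelled brains. Of the other glucocorticoid-induced genes 3 of 25 passed, Cebpb (0.42 ± 0.10) and Tgm2, a transglutaminase (0.38 ± 0.11), higher and Map3k6, a stress-activated kinase (-0.44 ± 0.12), lower. Fkbp1b (-0.44 ± 0.08) and Fkbp1a (-0.45 ± 0.12) were lower, 2 of 13 relatives (15.4%). Foxo4 (0.76 ± 0.19) and Rela (0.34 ± 0.07) were higher, and Egr2 (-0.73 ± 0.16) was lower, each the 1 gene of its list that passed. The adjusted p of these genes lay between 0.00246 and 0.0340. No gene passed in the lists of receptors and of stress peptides, where the smallest p were those of Hspa8 (-0.22 ± 0.09; adjusted p = 0.108) and Crhr2 (-0.44 ± 0.15; adjusted p = 0.0600). With the Actb ratio as a covariate, 759 of all 13070 genes passed between the lines. Then 1 gene was higher and 1 lower in the mTORC1 list, and 2 and 1 among the Klf9 relatives. Counts were 2 and 0 for the other glucocorticoid-induced genes, 0 and 1 for the Fkbp list and 0 and 0 for NF-kappaB. They were 1 and 0 for the Sgk1 list and for stress peptides, and 1 and 1 for immediate early genes.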

How the data were processed

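Affymetrix Mouse 430 2.0 intensity values of 18 arrays were taken from the authors' deposited value table; per the submitters' processing notes they are MAS5 signals, and each array's 2% trimmed mean was 500 in the deposited values. No scanner or detection files were used here, so whether a probe set lies above background is not given, and the number of arrays limits precision. Probe sets were named from the platform annotation (34945 with 1 symbol, 932 with several, 9160 with none, 64 controls left out), and the brightest per gene was used.

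Signals plus 63.63 (the 25th percentile) were put on the log2 scale, genes below the 40th percentile of level (7.58) were left out, and 13070 genes were fitted with limma 3.58.1 in R 4.3.3: means of 6 genotype-by-sex groups with an intensity trend (12 residual degrees of freedom), genotype contrasts averaging the sexes, and Benjamini-Hochberg adjustment over all genes tested. All 45037 probe sets were fitted likewise without the filter. Esr1 and Esr2 were compared by exact permutation tests. The steps were tested on simulated data. Alternatives changed scaling, pseudocount, filter, trend, array weights, covariates, blocking and single arrays.

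The 8 genes and all gene lists were chosen with earlier results of these data known. Named genes are all members with every probe set, Esr1 and Esr2, up to 5 genes of each list with the smallest adjusted p past the threshold (or the 1 with the smallest p), and the 3 genes most correlated with each member. The replicate numbers were taken from the sample titles and were not treated as pairs. Only descriptions of ERalphaKO samples carry a date string, whose meaning the labels do not give and which cannot be told apart from genotype. Sequences are RefSeq's (GRCm38.p6), and 7 of the 8 genes matched.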

Additional observations from a re-analysis of the deposited data

Results flagged for a closer look

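Within each genotype, the highest and the lowest of the 6 arrays were checked for a gap to the nearest other array that is large beside the genotype's whole range (Dixon's 95% critical value), over 24 gene and genotype groups, and chance alone marks about 1 in 20 groups. For Sgk1, ERalphaKO-labelled male replicate 3 was lowest, at 2626 signal units where the other 5 arrays lay between 3971 and 4405. For Klf9, ERalphaKO-labelled female replicate 3 was lowest, at 4922, where the other 5 lay between 6125 and 6918. For Pdk4, wild-type male replicate 1 was highest, at 309.5, where the other 5 lay between 150.8 and 194.3.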

How the results depend on the processing

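Each choice was changed alone, except that the fit of all probe sets also drops the level filter. Beside wild type, Sgk1 and Ddit4 passed in ERalphaKO-labelled brains under all 32 alternatives (0.78 to 1.04 and 0.59 to 0.71), and in ERbetaKO-labelled brains under 30 and 31. The count of the 8 genes called in ERbetaKO-labelled brains moved to 4 under quantile normalization (Klf9 0.25 and Nfkbia 0.26 added), 0 with the Actb ratio as a covariate and 1 on the 11 arrays with Pcp2 above 500, a setting chosen after seeing the data. Median scaling, which put the median of all genes at -0.12, called Zbtb16 there (-0.42). Between the knockout-labelled lines the count moved from 1 to 0 under median scaling, no level filter, the 60th percentile filter, all probe sets, no intensity trend, the Actb ratio or only the 2 genotypes. Leaving out 1 array gave 0 to 1, with 1 kept without ERbetaKO female 2 or 3, ERbetaKO male 1 or wild-type male 1 or 2. For the probe sets beside the leads, whose alternatives were chosen after seeing the data, 2 passed in ERalphaKO-labelled brains (2 to 3 on leaving out arrays). In ERbetaKO-labelled brains 0 became 1 with the cerebellum score (0 to 1 on leaving out arrays, 1 without ERalphaKO male 3). Between the lines 2 became 6 under median scaling and 0 with the Actb ratio or on the high Pcp2 arrays (1 to 4 on leaving out arrays, 1 without ERalphaKO male 2, 4 without ERalphaKO male 3). Signs turned only among differences that did not pass. In ERalphaKO-labelled against wild-type brains these were Klf9 (quantile 0.106, array weights 0.013, Actb 0.044) and Nfkbia (quantile 0.041), and on leaving out arrays Zbtb16 ran from -0.183 to 0.022 and Klf9 from -0.046 to 0.042. In ERbetaKO-labelled against wild-type brains they were Fkbp5 (median scaling -0.078, cerebellum score -0.034, Actb -0.312, high Pcp2 -0.162), Tsc22d3 (median scaling -0.09, array weights -0.028, Actb -0.031, high Pcp2 -0.004) and Pdk4 (high Pcp2 -0.017), with ranges on leaving out arrays of -0.039 to 0.193 for Fkbp5 and -0.037 to 0.107 for Tsc22d3. Between the lines they were Sgk1 (cerebellum score -0.009), Ddit4 (quantile -0.008, cerebellum score -0.048, Actb -0.015) and Pdk4 (quantile 0.07, median scaling 0.092, cerebellum score 0.008, Actb 0.029, high Pcp2 0.082), with ranges of -0.047 to 0.149, -0.023 to 0.088 and -0.107 to 0.071 for Sgk1, Ddit4 and Pdk4. The cause of these changes was not tested. Over all genes, 877, 981 and 2015 were called in the 3 comparisons, ERalphaKO-labelled and ERbetaKO-labelled against wild type and against each other. Over the alternatives these counts ran from 79 to 2124, from 122 to 1877 and from 759 to 4245, the lowest with few arrays or the Actb ratio. Median scaling turned the split between the lines to 1870 higher and 556 lower, against 825 and 1190. Of 18 same-numbered pairs of arrays 7 correlated above 0.1 in their deviations (-0.403 to 0.435), so the numbers were not taken to pair the arrays, although 10 of 18 arrays correlated best with their own number, a hint from the data and not from the design. With the replicate block the members called stayed at 2, 2 and 1, with Sgk1 at 0.906 and 0.867 and Ddit4 at 0.632 and 0.615, and 785, 790 and 1878 genes were called. For females against males the block lies within sex and gave no value, and the 60th percentile filter gave none for Pdk4. The number of arrays and the absence of detection calls in the values used limit the dim probe sets.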
